A study of Arabidopsis thaliana with 40 samples.

Results

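The acetylated histone mark H3K9/14ac, on lysines 9 and 14 of histone H3, was compared in Arabidopsis thaliana seedlings that had been kept for 16 h or for 3 h in S-nitrosoglutathione (GSNO) with cPTIO. The comparison was set by the labels: the group of GSNO with cPTIO at 16 h against the group of the same mixture at 3 h, over all 13362 regions of the deposited differential tables and with the 2 peak lists of each time. It took in 4 of the 20 ChIP samples among the 40 samples of the series, the other 20 being inputs, and no measured value entered the choice. Both groups were seedlings of the ecotype Col-0, 7 days old, shaken in liquid medium with sucrose under days of 10 h light and 14 h dark. Both received 250 µM GSNO together with 500 µM cPTIO, so the donor and the scavenger are common to the pair and the length of the treatment differs. GSNO at 250 µM, glutathione (GSH) at 250 µM and water, each at 16 h and 3 h, served to show where the change with time differed. Each group had 2 biological replicates per the labels. The labels do not give the hour of harvest, so the length of the treatment and the time of day cannot be told apart. Samples were whole seedlings, in which fewer cells with a mark and less of the mark per cell cannot be told apart.

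Acetyl groups on the tail of histone H3 loosen the contact of DNA with the nucleosome, and in plants H3K9/14ac sits near the starts of genes in use. The mark follows the daily rhythm of transcription at clock genes and at genes for photosynthesis, which rise and fall with light and dark. GSNO is a carrier of nitric oxide in plant cells, and cPTIO is a compound that traps nitric oxide. The clock itself is built from morning factors, pseudo-response regulators and an evening complex that repress one another in turn.

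Whole reads per library came out of the deposited group means, and libraries are called a (the shallower) and b, since they carry no replicate number. At 16 h the libraries held 1686093 (a) and 2038442 (b) reads in the regions, and at 3 h they held 1853253 (a) and 3392158 (b). The median region had 110 and 134 reads at 16 h and 120.5 and 229 reads at 3 h. Values below are scaled reads, each library being brought to a median of 176 reads per region. Differences are on the log2(scaled reads + 1) scale, where the added 1 shrinks the change of low regions. They average the logs of the libraries, so 1 library with few reads can widen them. At AT4G17370 the difference was 3.20, against 1.57 from the group means centred on their medians. At MRE11 it was 7.27, against 8.18. The 2 libraries of a time differed from each other with an SD of 0.58 over regions at 16 h and 0.49 at 3 h. In GSNO the SD was 0.45 at 16 h and 0.51 at 3 h, and in GSH it was narrower, 0.34 at 16 h and 0.30 at 3 h. No library went below 1 read at a region, a level treated as a floor, and 31 and 10 regions stood at it in the 16 h libraries, against 23 and 4 in the 3 h libraries. The fold bounds given below take these values as plain read counts. Whether input reads had been subtracted from them was not tested. Regions lay at 3 of 7 shoot markers and at 2 of 8 root markers, and none of these 5 passed the test between the times. The stomatal lineage gene TMM had 261 and 254 scaled reads at 16 h, against 211 and 177 at 3 h, and the endodermis gene SCR had 718 and 534 at 16 h, against 547 and 446 at 3 h.

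Acetylation was higher at 16 h in 196 regions and lower at 16 h in 159 regions, out of 13362 tested with limma at an adjusted p under 0.05. These are 1.47% and 1.19% of all regions, and 2.66% in both directions. Genes for the light-harvesting antenna, the photosystems, morning clock proteins and light signalling were among the rises. Of the falls, 2 were on the evening clock list and 1, at the gene RVE2, was on the morning clock list. The median rise was 1.04 and the median fall was -1.13 on the log2 scale, with 106 rises and 98 falls beyond 1, and 23 rises and 22 falls beyond 2. In all 355 called regions both 16 h libraries lay on the same side of both 3 h libraries, which was also so in 2634 (19.7%) of all regions above and 2705 (20.2%) below. A library stood at 1 read in 10 of the rises and 5 of the falls.

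The number of calls depended on the libraries in the fit. It was 183 without library a of 16 h, 605 without library b of 16 h, 107 without library a of 3 h and 232 without library b of 3 h. Of the 196 rises, 42 were called in each of these fits, and of the 159 falls, 20 were. An unadjusted p under 0.05 was found at 2040 regions, 15.3% of all. In the deposited group means, each centred on its own median, 96.8% of regions differed by less than 1 between the times, with 185 more than 1 higher and 246 more than 1 lower at 16 h.

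**Figure D1:**
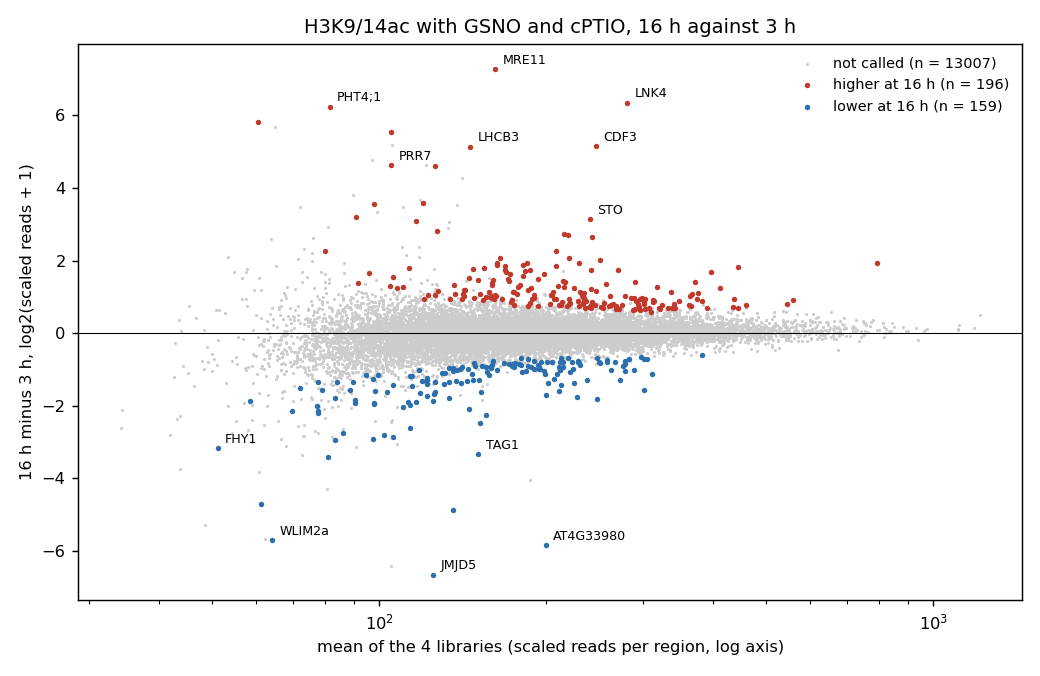
Difference between 16 h and 3 h (vertical axis, log2 of scaled reads plus 1) against the mean of the 4 libraries (horizontal axis, scaled reads, log scale), 1 point per region. The 196 regions called higher at 16 h are red, the 159 called lower are blue. The largest differences are 7.27 at MRE11 and -6.65 at JMJD5.

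The direction of calls shifted with the level of a region. In the tenth of regions with the lowest mean level (median 86.1 scaled reads) 7 regions were called higher and 27 lower, and the median difference was -0.23. In the tenth with the highest level (median 402 scaled reads) 26 regions were called higher and 1 lower, and the median difference was 0.07. The called rises had a median level of 216 scaled reads and a median width of 786 bases, the called falls 156 scaled reads and 724 bases, and all regions 175 scaled reads and 720 bases. Neither set was gathered on 1 chromosome: the rises counted 56, 28, 40, 35 and 37 on chromosomes 1 to 5, and the falls 38, 32, 22, 25 and 42, where all regions counted 3440, 2116, 2676, 2055 and 3075.

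The light-harvesting antenna, the chlorophyll-binding proteins that feed both photosystems, had the largest share of rises among the 28 gene lists. Of 20 genes 16 had a region, and 10 of these 16 rose and none fell, with a median difference of 1.55, against -0.01 over all regions. LHCB3, of the photosystem II antenna, had 265 and 294 scaled reads at 16 h, against 1.46 and 24.6 at 3 h (chromosome 5, 22038461 to 22039195). Its groups lay far apart, and the difference was 5.14 ± 0.99 (SE, limma adjusted p = 0.00549), a call lost without library a of either time. LHCB2.1 had 242 and 204 scaled reads at 16 h, against 35.1 and 27.0 at 3 h (2.81 ± 0.61, adjusted p = 0.0151), and this call was lost without library a of 16 h or either 3 h library. LHCA1, an antenna protein of photosystem I, had 418 and 341 scaled reads at 16 h, against 73.2 and 44.7 at 3 h (2.70 ± 0.46, adjusted p = 0.00203).

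The other antenna rises were smaller. LHCA4 differed by 2.06, LHCA3 by 1.94, LHCB5 by 1.68, LHCB6 by 1.41, LHCB4.2 by 1.23, LHCA2 by 1.18 and LHCB4.1 by 1.11, with limma adjusted p from 0.000915 at LHCB6 to 0.0103 at LHCB4.2. Of these, LHCA2 was lost without library a of 3 h, and LHCB4.2 without library a of 16 h or library b of 3 h. Of the 6 that did not pass, LHCB2.2 and LHB1B2 had wide errors. LHCB2.2 had 168 and 168 scaled reads at 16 h, against 13.2 and 9.24 at 3 h, with a difference of 3.81 ± 1.42 (adjusted p = 0.176). LHB1B2 had 183 and 178 scaled reads at 16 h, against 23.4 and 12.3 at 3 h, with a difference of 3.33 ± 1.62 (adjusted p = 0.331). The errors in the model combine the spread over all 8 groups with a variance trend that follows the mean level. They were wide at these regions although the 4 libraries of the comparison lay apart. LHCB1.3 differed by 1.11 ± 0.36 (adjusted p = 0.115). LHCA5 (0.16), LHCA6 (0.12) and LHCB4.3 (-0.19), minor forms of the antenna, differed by less than 0.2. LHCB1.1, LHCB1.2, LHB1B1 and LHCB2.3 had no region. The LHCB1 and LHCB2 genes are near-identical copies, and how the authors' counting treated reads that match several of them is unstated in the labels, so their values are uncertain. The count of 10 rises was 7 without library a of either time.

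The photosystem cores, electron transport and the Calvin cycle had regions at all 42 genes, of which 14 rose and none fell, with a median of 0.59. The rises were proteins of the photosystems and plastocyanin, and no gene of carbon fixation on the list passed. PSAD2, a subunit of photosystem I that docks ferredoxin, had 362 and 294 scaled reads at 16 h, against 83.4 and 95.5 at 3 h (1.86 ± 0.24, limma adjusted p = 0.000125). PSBO2, of the oxygen-evolving complex, had 699 and 515 scaled reads at 16 h, against 151 and 226 at 3 h (1.69 ± 0.20, adjusted p = 7.48e-05). PSBS, which turns on the dissipation of excess light energy, had 261 and 220 scaled reads at 16 h, against 58.5 and 80.1 at 3 h (1.79 ± 0.30, adjusted p = 0.00142). PSAH2 was the other large rise, at 1.74. Among the genes that did not pass, the small subunits of Rubisco RBCS1A, RBCS1B, RBCS2B and RBCS3B differed by 0.37, 0.19, -0.01 and 0.12. Other carbon fixation genes ranged more widely. In the deposited log2 group means FBA1 stood at 7.65 at 16 h, against 7.19 at 3 h, and PRK at 7.59, against 7.53. GAPB stood at 6.73, against 7.32, and TKL1 at 7.92, against 8.54. These means are not centred, and their medians over all regions were 6.85 at 16 h and 7.36 at 3 h. Relative to the medians FBA1 lay below at 3 h and above at 16 h, and PRK lay further above at 16 h. GAPB and TKL1 changed little relative to them. The number of rises on this list was 8 without library a of 16 h and 7 without library a of 3 h. In chlorophyll synthesis 1 of 15 regions rose, that of CRD1, a subunit of the cyclase that closes the ring of chlorophyll, with 260 and 246 scaled reads at 16 h, against 117 and 90.9 at 3 h (1.29 ± 0.26, adjusted p = 0.00867). This call was lost without library a of 16 h and without library b of 3 h.

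**Figure D2:**
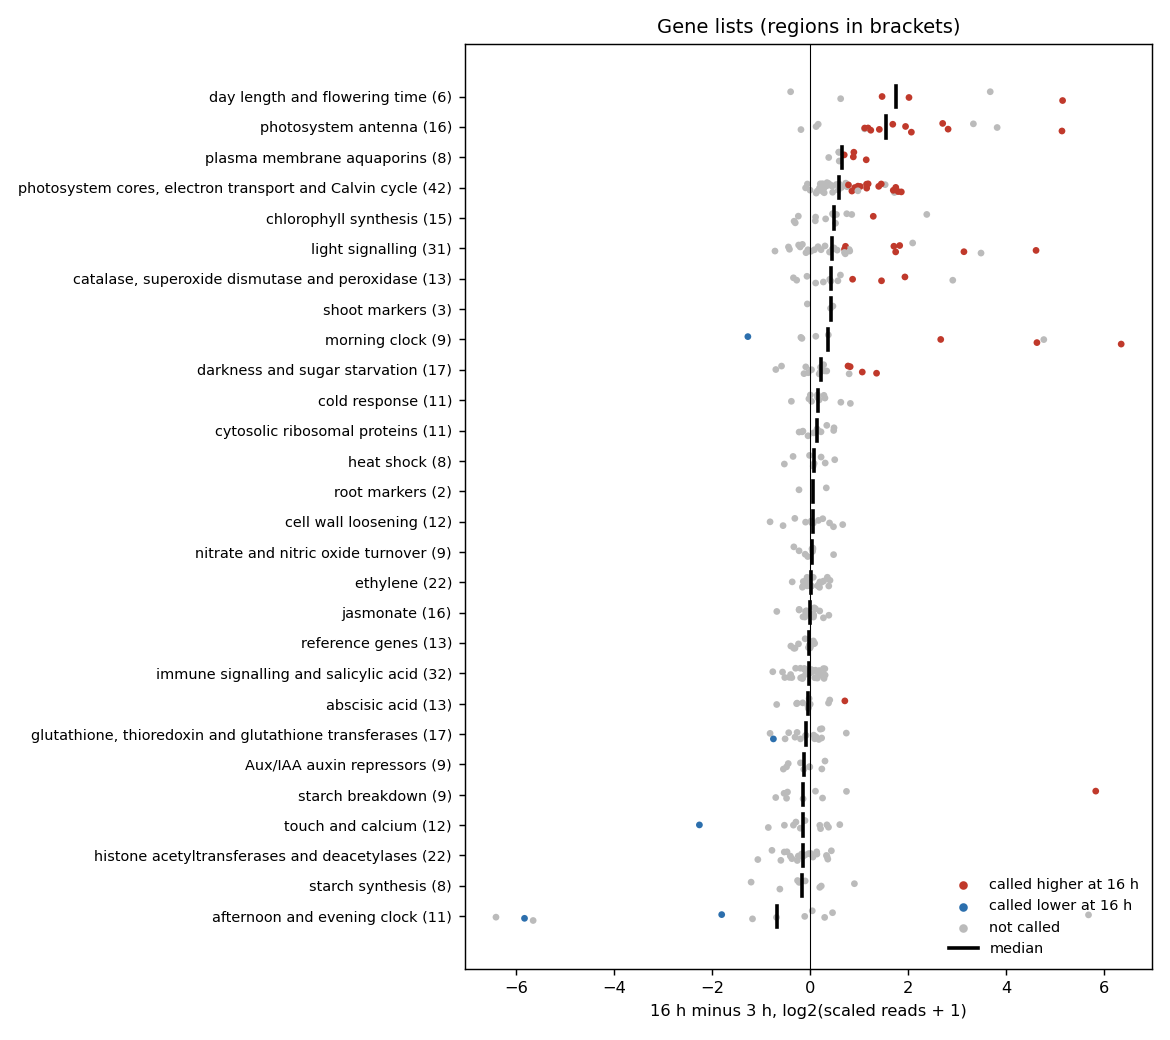
Difference between 16 h and 3 h (log2 of scaled reads plus 1) for each region of 28 gene lists, ordered by the list's median (black bar), with regions called higher in red, called lower in blue and not called in grey. Day length (1.74) and antenna (1.55) have the highest medians, the afternoon and evening clock the lowest (-0.69), and the immune, nitrate and reference lists have medians of -0.03, 0.03 and -0.02.

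Clock genes held calls in both directions. Of 9 regions at morning clock genes 3 rose and 1 fell, and of 11 regions at afternoon and evening clock genes none rose and 2 fell, with medians of 0.37 and -0.69. LNK4, a partner of the morning transcription factors, had 526 and 578 scaled reads at 16 h, against 1.46 and 17.7 at 3 h (6.35 ± 1.17, limma adjusted p = 0.00370, chromosome 5, 2167659 to 2168715). Its relative LNK3 had 396 and 428 scaled reads at 16 h, against 38.0 and 108 at 3 h (2.66 ± 0.39, adjusted p = 0.000572). The pseudo-response regulator PRR7, a daytime repressor of the clock, had 168 and 226 scaled reads at 16 h, against 1.46 and 24.6 at 3 h (4.63 ± 1.17, adjusted p = 0.0371). In these genes both 16 h libraries were high and library a of 3 h was the lowest of the 4. LNK4 lost its call without library a of 16 h, and PRR7 without either 16 h library or library a of 3 h. The morning relative PRR9 showed a like pattern, 199 and 170 scaled reads at 16 h, against 1.46 and 17.7 at 3 h, but its difference of 4.77 ± 3.21 did not pass (adjusted p = 0.527).

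RVE2, a MYB factor related to CCA1, went against the other called members of the morning list. It had 154 and 124 scaled reads at 16 h, against 307 and 366 at 3 h, a fall of -1.27 ± 0.19 (limma adjusted p = 0.000572). RVE1 (0.11), RVE4 (-0.17), AT4G01280 (0.37) and AT5G52660 (-0.19) did not pass. CCA1, LHY, ASG4, RVE7, RVE8, LNK1 and LNK2 had no region. Without library a of 16 h the 3 rises on this list were 1, LNK3, and the fall of RVE2 was called in every fit that left out a library.

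Among evening genes, BOA, a factor related to the evening complex protein LUX, had 175 and 64.5 scaled reads at 16 h, against 391 and 360 at 3 h, a fall of -1.81 ± 0.41 (limma adjusted p = 0.0187). AT4G33980, on the list as a clock-regulated gene beside COR27, had 19.2 and 1.32 scaled reads at 16 h, against 373 and 407 at 3 h, a fall of -5.83 ± 1.27 (adjusted p = 0.0146, chromosome 4, 16283905 to 16285096). Both calls were lost without library b of 16 h and without either 3 h library. COR27, which responds to cold and feeds back on the clock, stood at 1 read in both 16 h libraries, 1.60 and 1.32 scaled reads, against 215 and 203 at 3 h. ELF4, a subunit of the evening complex, did so too, with 1.60 and 1.32 scaled reads at 16 h, against 126 and 120 at 3 h. Against a floor of 3 reads per library, COR27 was at least 47.7-fold lower and ELF4 at least 28.1-fold lower at 16 h. The differences of -6.42 ± 2.53 and -5.66 ± 5.11 did not pass (adjusted p = 0.204 and 0.670). Their errors combine the spread over all 8 groups with a variance trend that follows the mean level. How far each of these made the errors wide was not tested. TOC1, the evening pseudo-response regulator, differed by -0.69 ± 0.20 (adjusted p = 0.0661) and ELF3 by -1.18 ± 0.38 (adjusted p = 0.108). GI ran the other way: 111 and 146 scaled reads at 16 h, against 1.46 and 1.54 at 3 h, with a difference of 5.68 ± 7.50 (adjusted p = 0.795). LUX (-0.11), ZTL (0.29), LKP2 (0.04) and CHE (0.45) did not pass, and PRR5, PRR3 and FKF1 had no region. With no trend in the variance, 1 region of this list was called higher and 2 lower.

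Genes that measure day length rose in 3 of 6 regions and none fell, and the median of 1.74 was the highest of all lists. CDF3, a DOF factor of the family that represses CONSTANS, had 452 and 508 scaled reads at 16 h, against 8.78 and 17.7 at 3 h (chromosome 3, 17504417 to 17506001). Its difference of 5.15 ± 0.54 shared the lowest adjusted p of all regions (2.11e-05), and it was called in every fit that left out a library. CDF1 had 237 and 205 scaled reads at 16 h, against 90.7 and 69.3 at 3 h (1.47 ± 0.31, adjusted p = 0.0129). COL2, a relative of CONSTANS, had 454 and 345 scaled reads at 16 h, against 132 and 71.6 at 3 h (2.01 ± 0.45, adjusted p = 0.0187). CDF1 and COL2 lost their calls without library a of 16 h and without library b of 3 h. CDF2 (3.67 ± 1.39, adjusted p = 0.184), COL1 (0.62 ± 0.19, adjusted p = 0.0877) and CO itself (-0.40 ± 0.37, adjusted p = 0.673) did not pass.

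Light signalling rose at 7 of 31 regions and fell at none, with a median of 0.45. The rises were 3 phytochrome-interacting factors, which drive growth in the dark and in shade, 3 B-box proteins and the blue light receptor PHOT1. PIF4 had 260 and 208 scaled reads at 16 h, against 1.46 and 36.2 at 3 h (4.61 ± 1.15, limma adjusted p = 0.0350). PIF7 had 499 and 334 scaled reads at 16 h, against 140 and 105 at 3 h (1.74 ± 0.22, adjusted p = 0.000135). STO, of the B-box family of zinc finger proteins, had 391 and 472 scaled reads at 16 h, against 48.3 and 47.8 at 3 h (3.14 ± 0.62, adjusted p = 0.00674). BBX28 had 694 and 694 scaled reads at 16 h, against 215 and 177 at 3 h (1.82 ± 0.22, adjusted p = 7.48e-05). PIF7, BBX28 and BBX29 (1.71) were called in every fit that left out a library, while STO was lost without library a of 3 h, and PIF4 and PHOT1 (0.70) in 3 of the 4 fits. The photoreceptors PHYA, PHYB, PHYC, PHYD, PHYE, CRY1, CRY2 and PHOT2 lay between -0.43 and 0.30 and did not pass. The number of rises was 4 without library a of 16 h and 3 without library a of 3 h.

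Several smaller lists also held rises. Of 13 regions at catalase, superoxide dismutase and ascorbate peroxidase genes 3 rose, with a median of 0.42. CAT2, the catalase of leaf peroxisomes, had 287 and 292 scaled reads at 16 h, against 51.2 and 110 at 3 h (1.93 ± 0.28, limma adjusted p = 0.000477), and the thylakoid peroxidase TAPX had 220 and 251 at 16 h, against 95.1 and 76.2 at 3 h (1.45 ± 0.22, adjusted p = 0.000572). Of 8 regions at plasma membrane aquaporins, the water channels of the cell surface, 4 rose, with a median of 0.64. The largest was PIP2;1, with 449 and 474 scaled reads at 16 h, against 244 and 178 at 3 h (1.14 ± 0.20, adjusted p = 0.00225). The number of aquaporin rises was 2 without either 16 h library and 1 without library b of 3 h. Of 17 regions at genes of darkness and sugar starvation 4 rose, led by MCCA, of leucine breakdown, with 380 and 359 scaled reads at 16 h, against 139 and 149 at 3 h (1.35 ± 0.21, adjusted p = 0.000982). This count was 1 without library a of 16 h and 2 without either 3 h library.

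AMY3, an alpha-amylase of the plastid, was the rise among 9 regions of starch breakdown, whose median was -0.15. It had 96.2 and 144 scaled reads at 16 h and stood at 1 read in both 3 h libraries, 1.46 and 0.77 scaled reads (chromosome 1, 26292351 to 26293000). Against a floor of 3 reads per library it was at least 35.8-fold higher at 16 h, and the fitted difference was 5.83 ± 1.46 (limma adjusted p = 0.0355). It lost its call without either 16 h library, and without library a of 16 h another region of the list was called lower and the list's median was 0.07. The authors' deposited table of treatment over water put AMY3 at -0.95 at 16 h (FDR 0.642) and at -4.53 at 3 h (FDR 8.46e-06) on the log2 scale. In all, the authors' deposited table called 75 regions at 16 h (0.561%) and 5 at 3 h (0.0374%) against water. No region of the 8 for starch synthesis passed, where 2.66% of all regions did, the widest being SS2 at -1.21 ± 0.34 (limma adjusted p = 0.0561).

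**Figure D3:**
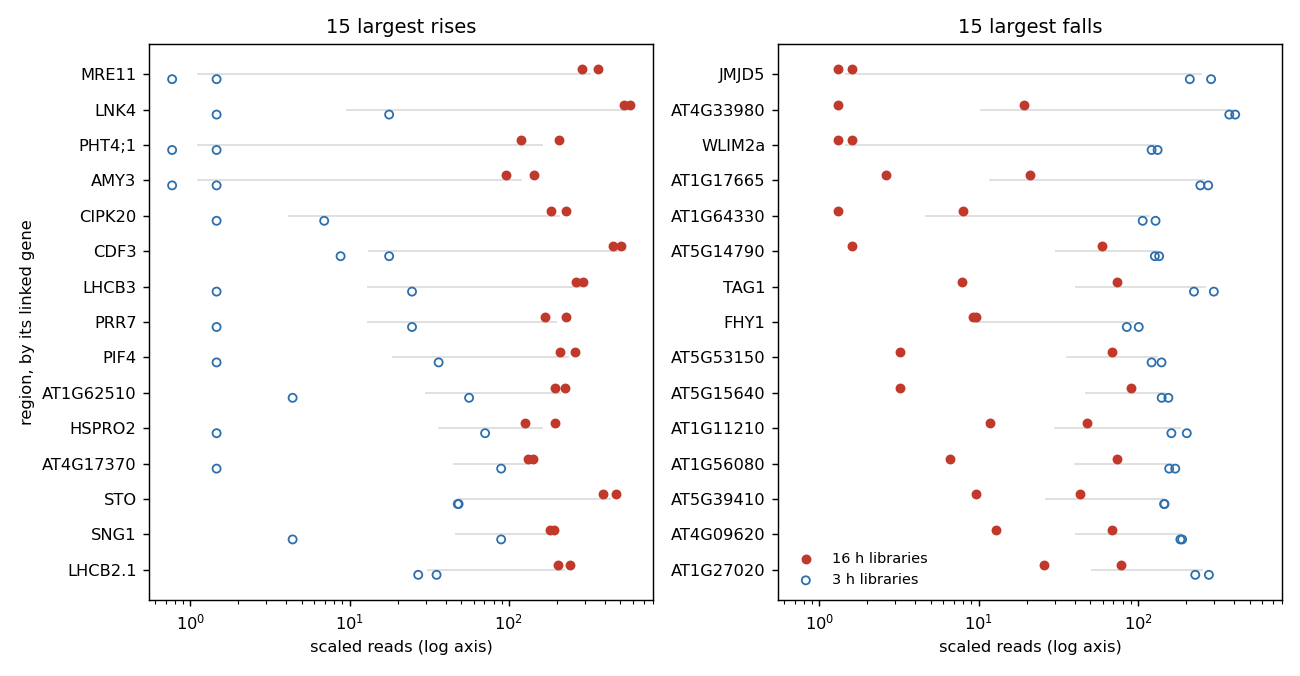
Scaled reads (log axis) of each library at the 15 largest rises (left) and the 15 largest falls (right) with GSNO and cPTIO. Filled red points are the 16 h libraries and open blue points the 3 h libraries, and the grey line joins the group means. The 30 regions were chosen among those whose groups do not overlap, which held for 19.7% of all regions above and 20.2% below.

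Outside the lists, the widest rise of all was at MRE11, a nuclease of DNA double-strand break repair. It had 361 and 286 scaled reads at 16 h and 1 read in both 3 h libraries, 1.46 and 0.77 scaled reads (chromosome 5, 22036689 to 22037860). Against the floor, with values taken as plain read counts, it was at least 96.5-fold higher at 16 h. The fitted difference was 7.27 ± 1.65 (limma adjusted p = 0.0191). This region is the neighbour of the LHCB3 region in the table, and the genes lie next to each other. PHT4;1, a phosphate transporter of the thylakoid, had 205 and 118 scaled reads at 16 h and 1 read in both 3 h libraries, at least 48.3-fold higher at 16 h (6.23 ± 1.38, adjusted p = 0.0161). MRE11 lost its call without either 16 h library, with the 4 libraries alone in the fit (adjusted p = 0.132) and with trichostatin A at 3 h added to it (adjusted p = 0.0642), and PHT4;1 without library a of 16 h. Relative to water the authors' deposited table had PHT4;1 at -0.48 at 16 h (FDR 1.00) and -4.28 at 3 h (FDR 1.18e-05), and CDF3 at -0.12 at 16 h (FDR 1.00) and -2.44 at 3 h (FDR 1.66e-05).

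CIPK20, a protein kinase regulated by calcium sensors, had 184 and 228 scaled reads at 16 h, against 1.46 and 6.93 at 3 h (5.54 ± 1.03, limma adjusted p = 0.00395). It was called in every fit that left out a library, but fell short of the threshold under 1 other setting. AT1G62510 had 194 and 225 scaled reads at 16 h, against 4.39 and 56.2 at 3 h (3.58 ± 0.74, adjusted p = 0.00995), a call lost without library a of either time. In 3 further rises the groups were set apart mostly by library a of 3 h. HSPRO2, an ortholog of a nematode resistance gene of sugar beet, had 127 and 194 scaled reads at 16 h, against 1.46 and 70.8 at 3 h (3.57 ± 0.86, adjusted p = 0.0291). AT4G17370 had 132 and 141 scaled reads at 16 h, against 1.46 and 89.3 at 3 h (3.20 ± 0.85, adjusted p = 0.0447). SNG1, which makes sinapoylmalate, a sunscreen of the leaf, had 181 and 192 scaled reads at 16 h, against 4.39 and 89.3 at 3 h (3.09 ± 0.76, adjusted p = 0.0340). Without library a of 3 h their differences were 1.13, 0.60 and 1.05 and no longer passed. Each of the 3 fell short of the threshold in 5 of the alternative runs in all and kept its call in 6.

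The widest fall was at JMJD5, a jumonji histone demethylase that is tied to the clock. It stood at 1 read in both 16 h libraries, 1.60 and 1.32 scaled reads, against 287 and 211 at 3 h (chromosome 3, 7275796 to 7276566). Against the floor it was at least 56.8-fold lower at 16 h, and the fitted difference was -6.65 ± 1.41 (limma adjusted p = 0.0125). The call was lost without either 3 h library. WLIM2a, a LIM protein that bundles actin filaments, also stood at 1 read in both 16 h libraries, 1.60 and 1.32 scaled reads, against 122 and 132 at 3 h (chromosome 2, 16658724 to 16659502). It was at least 29.0-fold lower at 16 h (-5.70 ± 0.84, adjusted p = 0.000572) and was called in every fit that left out a library, though not with the 4 libraries alone in the fit (adjusted p = 0.661). Relative to water the authors' deposited table had JMJD5 at -3.79 at 16 h (FDR 0.0205) and -0.13 at 3 h (FDR 1.00), and WLIM2a at -5.96 at 16 h (FDR 5.15e-12) and 0.18 at 3 h (FDR 1.00).

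AT1G17665 had 20.8 and 2.63 scaled reads at 16 h, against 275 and 246 at 3 h (-4.87 ± 0.80, limma adjusted p = 0.00142). TAG1, the acyltransferase that makes triacylglycerol, had 73.8 and 7.90 scaled reads at 16 h, against 299 and 224 at 3 h (-3.33 ± 0.57, adjusted p = 0.00203). FHY1, which carries phytochrome A into the nucleus, had 9.62 and 9.21 scaled reads at 16 h, against 84.9 and 101 at 3 h (-3.17 ± 0.70, adjusted p = 0.0159). The 2 libraries of 16 h lay close together at FHY1 and far apart at TAG1. AT1G17665 and TAG1 were called in every fit that left out a library, and FHY1 and AT1G64330 were lost without either 3 h library. AT1G64330 had 8.02 and 1.32 scaled reads at 16 h, against 107 and 129 at 3 h (-4.69 ± 0.91, adjusted p = 0.00570), and the authors' deposited table had it at -2.85 against water at 16 h (FDR 0.0119).

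The other 8 of the 15 widest falls lay between -3.40 at AT5G14790 and -2.47 at AT1G27020. In each of them the 16 h libraries lay far apart, and the rule of choice required the higher to be below both 3 h libraries. AT5G14790 had 1.60 and 59.2 scaled reads at 16 h, against 127 and 136 at 3 h, and AT5G15640 had 3.21 and 90.8 at 16 h, against 140 and 155 at 3 h. Without library a of 16 h these differences were -1.14 and -0.69 and no longer passed, and that of AT5G53150 was -0.92 and no longer passed. AT5G14790, AT5G15640 and AT5G53150 each fell short of the threshold in 5 of the alternative runs in all and kept the call in 6. ACA8, a calcium pump of the plasma membrane, was the fall among 12 regions of touch and calcium genes, with 64.1 and 43.4 scaled reads at 16 h, against 277 and 240 at 3 h (-2.26 ± 0.27, limma adjusted p = 7.48e-05), and its call held in every fit that left out a library. GSTF9, a glutathione transferase, was the call among 17 regions of glutathione and thioredoxin genes and fell by 0.75 on the log2 scale, with 204 and 209 scaled reads at 16 h, against 344 and 354 at 3 h (adjusted p = 0.0362), a call lost in each fit that left out a library. Without library a of 16 h, and without library b of 3 h, the list had 1 rise and no fall.

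At genes of nitrate and nitric oxide turnover none of 9 regions passed, where 2.66% of all regions did, and the median was 0.03. GSNOR1, the enzyme that removes GSNO, had 239 and 272 scaled reads at 16 h, against 287 and 263 at 3 h (-0.11 ± 0.17, limma adjusted p = 0.834). The nitrate reductase gene NIA2 had its strongest region at 475 and 387 scaled reads at 16 h, against 477 and 358 at 3 h (0.05 ± 0.19, adjusted p = 0.938), and the widest difference was 0.48 ± 0.29 at NOA1 (adjusted p = 0.468). A second region in NIA2 fell, with 125 and 134 scaled reads at 16 h, against 274 and 244 at 3 h (-0.99 ± 0.25, adjusted p = 0.0376). It was seen when every linked region was counted, and its call was lost in each fit that left out a library.

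None of 32 regions of immune signalling and salicylic acid, 16 of jasmonate, 22 of ethylene, 8 of heat shock, 11 of cold response, 12 of cell wall loosening, 9 of Aux/IAA repressors or 11 of cytosolic ribosomal proteins passed. Over all regions 2.66% passed, so a list of such a length without a call lies near that share. The medians of these lists lay between -0.13 and 0.15. The widest of these, list by list, were TGA3 (-0.77, adjusted p = 0.182 with limma) among immune genes, ORA59 (-0.68) in jasmonate, ERF105 (0.40) in ethylene, HSP101 (-0.53) in heat shock and COR413-PM1 (0.82) in cold response. They were XTH4 (-0.82) in cell wall loosening, IAA7 (-0.55) among the repressors and RPS10B (0.48) among ribosomal proteins. Nor did any of 22 regions at histone acetyltransferases and deacetylases, with a median of -0.16: HDA19 differed by -0.16 ± 0.22, HDA6 by 0.13 ± 0.23 and GCN5 by -0.18 ± 0.20, and the widest was HAF2 at -1.07 ± 0.48 (limma adjusted p = 0.285). Without library b of 16 h 3 regions of that list were called lower. ABF3, an activator of abscisic acid responses, was the single call among 13 regions of that list (0.70 ± 0.18, limma adjusted p = 0.0355), and the call was lost without 3 of the 4 libraries. The reference genes ACT2, UBQ10 and PP2AA3 differed by -0.01, 0.06 and 0.00, and the list's median was -0.02. An adjusted p above the threshold does not show that these regions were alike at the times.

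Most of the called regions had a difference of the same sign under the other treatments. These changes were computed from other libraries than those of GSNO with cPTIO, though in the same fit. Of the 196 rises, 94.9% had a positive difference with GSNO, 95.9% with GSH and 92.3% with water, and 170 had one in all 3. Of the 159 falls, 88.1% had a negative difference with GSNO, 90.6% with GSH and 86.2% with water, and 114 had one in all 3. Over all regions 62.1%, 62.6% and 62.3% shared the sign. The changes elsewhere were smaller: the median of the 196 rises was 0.60 with GSNO, 0.59 with GSH and 0.74 with water, and that of the 159 falls was -0.45, -0.48 and -0.41. The regions were chosen for their size with GSNO and cPTIO, a choice that favours larger values there. Across all 13362 regions, which are not independent replicates, the change with time correlated with that of GSNO at r = 0.52, of GSH at 0.59 and of water at 0.49.

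Fewer regions were called with time under the other treatments, but the counts are not like for like. The same spread, pooled over the groups, served every treatment. The libraries of a time differed with an SD of 0.58 at 16 h and 0.49 at 3 h in GSNO with cPTIO. In GSNO it was 0.45 and 0.51, and in GSH 0.34 and 0.30. GSNO had 68 higher and 27 lower at 16 h (0.509% and 0.202%), GSH 34 and 16 (0.254% and 0.12%), and water, with a single library at 16 h, 72 and 122 (0.539% and 0.913%). The 47 rises shared with GSNO were 24.0% of the rises with GSNO and cPTIO and 69.1% of those with GSNO. The 29 shared with GSH were 14.8% and 85.3%, and the 48 shared with water were 24.5% and 66.7%. Of the falls, the 15 shared with GSNO were 9.43% of those with GSNO and cPTIO and 55.6% of those with GSNO. The 9 falls shared with GSH were 5.66% and 56.3%, and the 16 shared with water were 10.1% and 13.1%. The antenna list had a median of 1.55 with GSNO and cPTIO, 1.64 with GSNO, 1.42 with GSH and 1.62 with water, and the day length list 1.74, 1.90, 1.64 and 2.38. The photosystem cores had 0.59, 0.37, 0.37 and 0.50. The catalase and peroxidase list had 0.42, 0.15, 0.07 and 0.06, and whether it differed as a list was not tested.

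**Figure D4:**
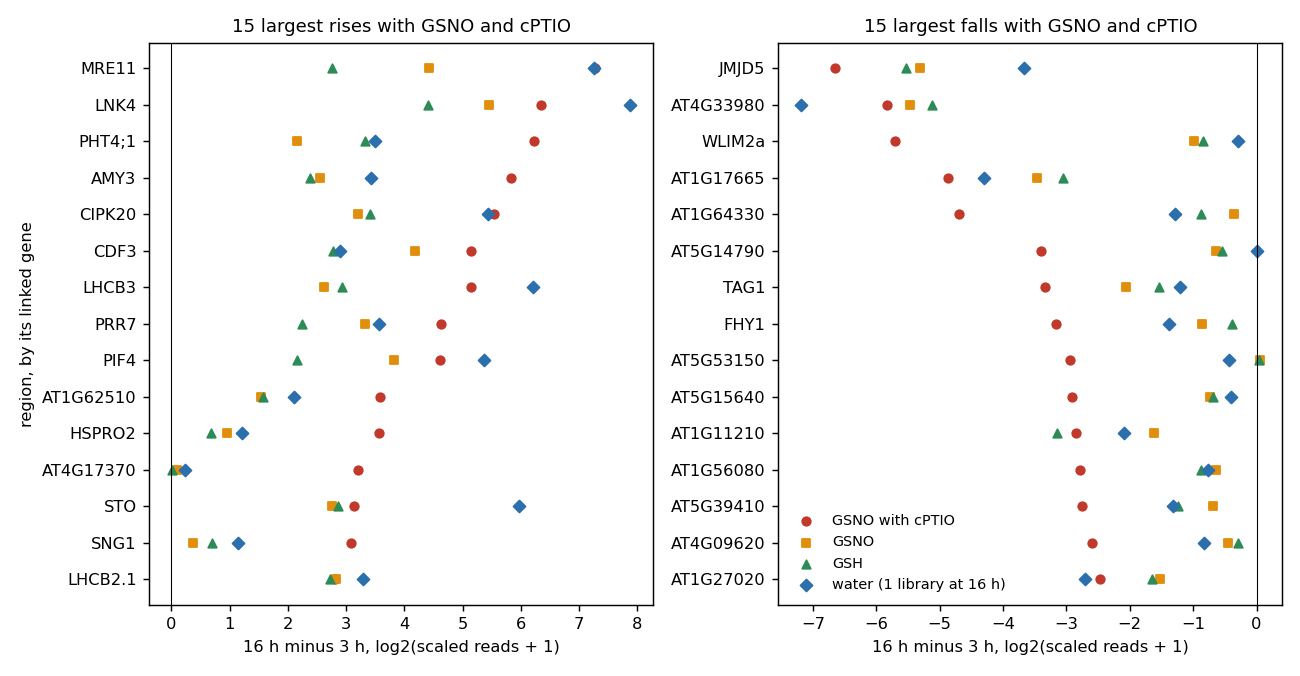
Difference between 16 h and 3 h (log2 of scaled reads plus 1) at the 15 largest rises (left) and falls (right) of GSNO with cPTIO, for GSNO with cPTIO (red circles), GSNO (orange squares), GSH (green triangles) and water (blue diamonds). At LHCB2.1 the treatments lie between 2.73 and 3.28, whereas at AT4G17370 the other treatments lie between 0.01 and 0.22.

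The difference of the change with time between treatments was tested region by region. Against GSNO no region was called (0%), the lowest limma adjusted p was 0.929, and 711 regions had an unadjusted p under 0.05. Against GSH no region was called (0%), the lowest adjusted p was 1.00, and 497 regions had an unadjusted p under 0.05. Several single regions were far from the other treatments without passing. At WLIM2a the fall of -5.70 stood beside -0.98 with GSNO, -0.84 with GSH and -0.29 with water. The WLIM2a libraries of 16 h were at 38.0 and 91.8 scaled reads with GSNO, 41.3 and 90.7 with GSH and 91.6 with water. The difference of the changes was -4.72 ± 1.19 against GSNO (unadjusted p = 0.000667, adjusted p = 0.929) and -4.86 ± 1.19 against GSH (unadjusted p = 0.000499, adjusted p = 1.00).

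At 3 regions of the smallest p against GSNO the change with time had been called with GSNO and cPTIO. AT3G21670, a member of the family of nitrate and peptide transporters, had 426 and 267 scaled reads at 16 h, against 83.4 and 57.8 at 3 h, a rise of 2.27 ± 0.24 (limma adjusted p = 2.11e-05). With GSNO it had 254 and 264 scaled reads at 16 h, against 149 and 169 at 3 h, and the difference of the changes was 1.56 ± 0.34 (unadjusted p = 0.000161, adjusted p = 0.929). AT2G26440, of the pectin methylesterase family, had 91.4 and 142 scaled reads at 16 h, against 345 and 274 at 3 h, a fall of -1.42 ± 0.20 (adjusted p = 0.000435). With GSNO it had 202 and 212 scaled reads at 16 h, against 212 and 250 at 3 h, and the difference of the changes was -1.27 ± 0.29. AT2G44940 differed by -1.22 ± 0.30 and had a fall of -0.99 (adjusted p = 0.0129). AT1G71500, named PSB33 in the reference, and AT1G76020 differed by -1.30 and 1.19, and their own changes of -0.65 and 0.60 were not called.

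Against GSH the 5 smallest p were at AT1G27695 (-1.92), AT5G58030 (-1.45), WLIM2a (-4.86), TMN6 (-2.36) and AT1G11200 (-1.11), each with a limma adjusted p of 1.00. All 5 fell with GSNO and cPTIO. TMN6, of a family of membrane proteins of the Golgi and endosomes, had 20.8 and 27.6 scaled reads at 16 h, against 149 and 80.9 at 3 h (-2.15 ± 0.41, adjusted p = 0.00544), while with GSH it had 159 and 113 at 16 h, against 127 and 105 at 3 h. The counts of these differences depended on the libraries in the fit. Without library b of GSNO with cPTIO at 16 h, 74 regions differed from GSNO and 65 from GSH, and AT3G21670, AT2G26440, AT1G27695, AT5G58030, WLIM2a and TMN6 passed. Without library b of GSNO at 3 h 19 regions differed from GSNO, and without library b of GSNO at 16 h 15 did. Leaving out library b of GSNO with cPTIO at 3 h gave 9 against GSNO and 8 against GSH.

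Against water, whose 16 h group was a single recovered library, 15 regions were called (0.112%), 13 of them positive and 2 negative. In the 5 with the smallest p the water library of 16 h stood low and GSNO with cPTIO changed little. AT1G14130 had 133 and 104 scaled reads at 16 h, against 101 and 176 at 3 h, and water had 1.70 at 16 h, against 133 and 117 at 3 h. The difference of the changes was 5.36 ± 0.62 (limma adjusted p = 0.000214), while the change with GSNO and cPTIO itself was -0.18 (adjusted p = 0.891). AT1G07930, AT1G61150, FBS4 and AT5G47430 had the same form, with the water library at 1.70, 6.78, 1.70 and 8.48 scaled reads at 16 h. At these 5 regions the changes with GSNO and with GSH lay between -0.63 (AT1G07930 with GSH) and 0.82 (FBS4 with GSNO). The count of 15 was 82 without library b of GSNO with cPTIO at 16 h, 7 without library a of GSNO with cPTIO at 3 h and 25 without library b of it.

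Peak lists gave a second reading of the same libraries. The lists of 16 h held 10700 and 6030 peaks, and those of 3 h held 13572 and 8656, with median widths of 507 and 594 bases at 16 h and 499 and 512 bases at 3 h. They covered 5622648 and 3707325 bases at 16 h, against 6993080 and 4587105 bases at 3 h. By an overlap of at least 1 base, 96.6% of the shorter 16 h list lay in the longer one, which had 54.8% of its peaks in the shorter. Of the first 16 h list 95.2% of peaks lay in the first 3 h list, and 75.1% of the peaks of that 3 h list lay in the first 16 h list. The longer 16 h list held more peaks than the shorter 3 h list, and no test was run on the lists.

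Regions called in the read counts differed in peaks as well. Of the 196 rises, 160 (81.6%) had a peak in both 16 h lists, against 67 (34.2%) in both 3 h lists. Of the 159 falls, 11 (6.92%) had a peak in both 16 h lists, against 131 (82.4%) in both 3 h lists. Over all 13362 regions, 5772 (43.2%) had a peak in both 16 h lists, against 8419 (63.0%) in both 3 h lists. A peak in both 16 h lists and in neither 3 h list was found at 64 regions, 35 of them called higher, and the reverse at 579, 70 of them called lower. The peaks come from the libraries that gave the calls and are no independent test of them.

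Among the named regions the lists split the same way. Of the 15 widest rises, 14 had no peak in either 3 h list, and 8 had a peak in both 16 h lists: MRE11, LNK4, CDF3, LHCB3, PIF4, AT1G62510, STO and LHCB2.1. AT4G17370 had a peak in 1 list of each time. None of the 15 widest falls had a peak in either 16 h list. COR27 and ELF4, not called in the reads, had a peak in both 3 h lists and in no 16 h list, whereas GI had a peak in none of the 4.

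**Figure D5:**
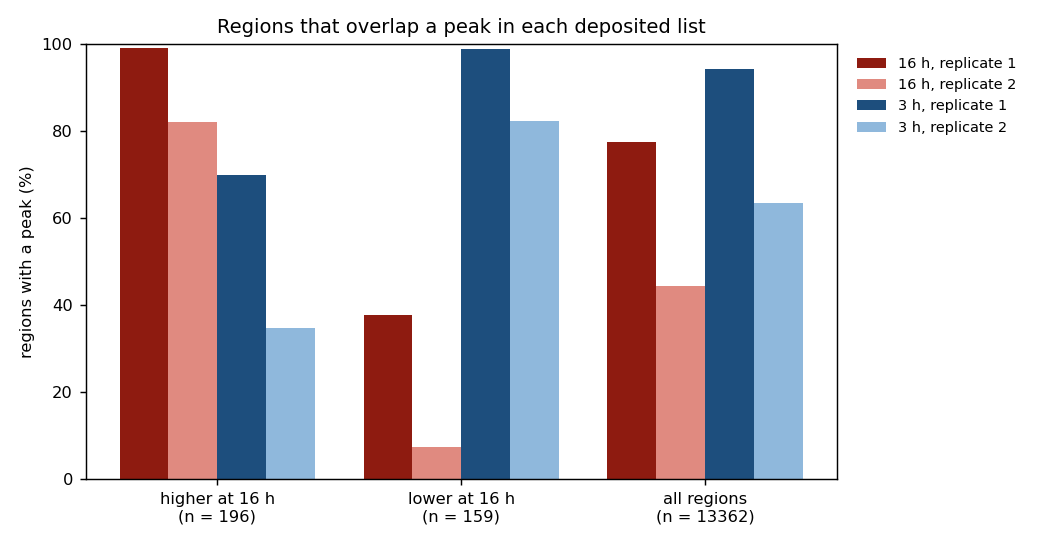
Share of regions with a peak in each of the 4 lists (vertical axis, percent, from 0), for the 196 regions called higher at 16 h, the 159 called lower and all 13362. Rises had a peak in 99.0% and 82.1% at 16 h, against 69.9% and 34.7% at 3 h, and falls in 37.7% and 7.55% at 16 h, against 98.7% and 82.4% at 3 h.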

How the data were processed

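H3K9/14ac was measured by ChIP-seq in whole seedlings, and titles gave each sample's group. The authors deposited a peak list per ChIP library and tables of each treatment against water, which give log2 group means, log2 folds and p-values with a false discovery rate. DiffBind and edgeR, and the builds TAIR10 and TAIR9, appear per the submitters' processing notes, with no version. No aligner, peak caller or read filter is named in those notes or in the labels. The deposited peak lists hold positions alone.

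The deposited group means resolved into whole reads per library, 100% of values being whole within 1e-08, for 17 libraries, including 2 of each group of GSNO with cPTIO and 1 of water at 16 h. The lowest value was 1 read. Libraries were scaled to equal medians and log2(scaled reads + 1) went into limma 3.58.1 (R 4.3.3), with moderated variances that follow the mean level. Tests were two-sided, and p-values were adjusted by Benjamini-Hochberg over 13362 regions, with 15 libraries, 8 groups and 7 residual degrees of freedom. Labels call the replicates biological. Each p-value reflects how far samples of the same group lie apart, pooled over the groups in the fit and moderated across regions. The scripts were tested on simulated data. The floor of 3 reads covers counting error only and takes the recovered values as plain read counts. Standard errors come from the spread between samples and its trend with the mean level.

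A region was linked to each gene it overlapped (13305 regions) or to the nearest within 1000 bases (42). Strand was not used, so distance was to the nearest gene edge, and 804 regions overlap 2 or more protein-coding genes, so a value may belong to a neighbour. Gene names come from RefSeq's TAIR10.1 table, and 523 of 524 list genes matched. A gene stands for its region of highest level. Named regions were the 15 widest called rises and falls whose groups lay apart and whose mean was at least 20 scaled reads, the 5 of smallest p in each other contrast, up to 4 called members per list or the widest where none was called, and all clock and antenna genes. The second region of NIA2 and some list members given as context fall outside this rule and were chosen after their values were seen. The members and gene lists were chosen with earlier results of these data known. In each of the 4 peak lists of GSNO with cPTIO 1 line spanning a chromosome was left out. Promoter motifs were not analysed here.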

Additional observations from a re-analysis of the deposited data

Results flagged for a closer look

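At 5 regions the change with time differed between GSNO with cPTIO and water, by the test of the difference itself in limma. The difference was 5.36 at AT1G14130 (adjusted p = 0.000214), 4.06 at AT1G61150 (adjusted p = 0.00054), 5.44 at AT1G07930 (adjusted p = 0.00162), 3.48 at AT5G47430 (adjusted p = 0.00294) and 4.62 at FBS4 (adjusted p = 0.00294). The change with GSNO and cPTIO was -0.18, -0.20, -0.25, -0.25 and -0.43 at these regions, none of them called, and that with water was -5.54, -4.26, -5.69, -3.73 and -5.04. In the same order the change with GSNO was -0.20, -0.54, -0.50, 0.30 and 0.82, and that with GSH was -0.40, -0.27, -0.63, -0.04 and 0.17. The wide change was thus that of water, not one particular to GSNO with cPTIO. The water group of 16 h is a single library, assumed to vary like the other groups. With the libraries of both treatments alone in the fit the adjusted p was 0.051 at AT1G14130, 0.125 at AT5G47430 and 0.597 at FBS4. With a pseudocount of 8 it was 0.0729 at FBS4.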

How the results depend on the processing

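No paired analysis was possible because the recovered libraries carry no replicate number. The 30 named regions and the tested differences kept their direction under every alternative run. Some list medians near 0 changed sign with a library left out: starch breakdown (-0.15) was 0.07 without library a of 16 h, touch and calcium (-0.16) 0.07 without it, nitrate (0.03) -0.16 without library b of 3 h, glutathione (-0.09) 0.14, immune (-0.03) 0.01 and reference genes (-0.02) 0.02 without library b of 16 h. The 355 calls (196 higher, 159 lower) were 168 (122 higher, 46 lower) with the 4 libraries alone in the fit and 186 (99 higher, 87 lower) with no trend in the variance. Leaving out 1 library gave 107 to 605 calls, 81 to 176 higher and 24 to 431 lower. TMM scaling gave 368, trichostatin A at 3 h added to the fit 431, pseudocounts of 0.5 and 8 gave 354 and 387, and a filter on low regions 355.

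The count of regions that differed from GSNO was 0, and 1 with no trend, with 0 to 74 when 1 library was left out. Against GSH it was 0, and 2 with no trend, with 0 to 65. Against water it was 15, and 24 with trichostatin A added, 24 with no trend, 3 with the libraries of both treatments alone and 8 with a pseudocount of 8, with 7 to 82 when 1 library was left out.

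For the 30 named regions 29 of 210 values under other settings, and 53 of 120 with a library left out, fell short of the threshold in the same direction. The cause of these shifts was not tested. The median region had 110 and 134 reads at 16 h, against 120.5 and 229 at 3 h, and the median standard error was 0.45 in the tenth of lowest level. Keeping the lines that span a chromosome, an alternative chosen after seeing the data, gave 64.2% in place of 54.8% of the longer 16 h peak list in the shorter. The higher scoring part of the peak lists was not run since the lists give no score, nor was leaving out the water library of 16 h, the sole one of its group.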
